A study of Homo sapiens with 4 samples.

Results

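The 10 genes described here encode the 4 Janus kinases (JAK1, JAK2, JAK3 and TYK2), 3 of the STAT transcription factors (STAT3, STAT5A and STAT5B) and 3 SOCS inhibitors (SOCS1, SOCS2 and SOCS3). They were taken by symbol from the deposited tables, and all 10 were found among the 21865 symbols, each listed once. RNA was sequenced from THP-1, MonoMac-1, HL60 and KG1a, 4 human acute myeloid leukemia lines grown in medium with serum, with 1 library and no replicate for each. THP-1 and MonoMac-1 are of monocytic type and bear the MLL-AF9 fusion (KMT2A-MLLT3), whereas HL60 is a myeloblastic to promyelocytic line and KG1a an immature CD34+ line, both without that fusion; these features are general knowledge of the lines and are not stated in the labels. A suffix, "tr", stands in the title of the THP-1 library, and the labels do not say whether this culture was treated. No treatment or added cytokine is named for any line, and each line stands for 1 leukemia.

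Janus kinases are tyrosine kinases bound to the inner ends of cytokine receptors that have no kinase domain of their own. When a cytokine brings the receptor chains together, the kinases phosphorylate STAT proteins, which pair, enter the nucleus and bind DNA. SOCS proteins are made in response to STATs and close the loop by blocking the receptor or the kinase or by marking them for degradation. In myeloid cells JAK2 serves the receptors of erythropoietin, thrombopoietin, GM-CSF and IL-3, while JAK3 is known mainly from lymphoid cells, where it pairs with the common gamma chain IL2RG. RNA levels say nothing of whether any of these proteins was phosphorylated.

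Levels are the RPKM that the authors deposited, reads scaled to the length of the gene and the size of the library, a unit that allows genes to be compared with each other. Intervals in brackets are 95% exact Poisson intervals on fragment equivalents of 200 bases, and cover counting error only. The libraries held 6.04 (THP-1), 13.6 (MonoMac-1), 8.72 (HL60) and 10.2 (KG1a) gigabases on genes. A gene was called measured when it reached 1 RPKM in at least 1 line, which 12976 genes and 9 of the 10 members did; SOCS1 did not. The types of the lines were checked against marker lists. Of 8 monocyte markers 7 were at 1 RPKM or more in THP-1 and all 8 in MonoMac-1, against 4 markers in HL60 and 2 markers in KG1a. Of 6 granulocyte precursor markers all 6 reached 1 RPKM in each line but KG1a, where 2 did, so that this count did not set HL60 apart. MPO and CEBPE were highest in HL60, at 4610 and 178 RPKM, against at most 95.2 and 16.1 RPKM in the other lines. ELANE, AZU1 and CTSG stood in THP-1 and MonoMac-1 at no less than 4 times their HL60 or KG1a level. ELANE was at 1042 RPKM in THP-1 and 1313 RPKM in MonoMac-1, against 76.6 RPKM in HL60 and 0.0355 RPKM in KG1a. PRTN3 was also higher in THP-1 (1624 RPKM) and MonoMac-1 (1558 RPKM) than in HL60 (615 RPKM). Of 5 stem and progenitor markers 2 reached 1 RPKM in THP-1, 3 in MonoMac-1 and 4 each in HL60 and KG1a. KG1a was the highest line for 4 of the 5, with CD34 at 494 RPKM. MEIS1 was highest in MonoMac-1 (18.6 RPKM) and stood at 0.480 RPKM in KG1a. One feature of the HL60 library bears on the results: 65 genes that had at least 20 RPKM in KG1a and under 1% of that level in THP-1 and MonoMac-1 lay in HL60 at a median of 2.71% of their KG1a level (quartiles 2.56% and 3.34%). JAK3 is 1 of these 65 genes and the only member among them. CD34 and BAALC, stem and progenitor markers that reached 1 RPKM in HL60, are also among the 65, at 2.62% and 2.58% of their KG1a level. HOXA9 is not among the 65 but stood in HL60 at 2.65 RPKM, or 2.84% of its KG1a level. GATA2, also at 1 RPKM or more in HL60, stood at 67.8%. The count of 4 such markers in HL60 is given with the share left in. The cause of this shared share was not tested, and calls of members that rest on it are given with and without it.

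The kinases differed most in JAK3, which was abundant in KG1a alone. JAK1 and TYK2 were well expressed in all 4 lines, and JAK2 was lowest in HL60. Summed over the 4 kinases, the level was 67.2 RPKM in THP-1, 72.9 in MonoMac-1, 44.4 in HL60 and 187 RPKM in KG1a.

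JAK3 (chromosome 19, 17935593 to 17958841 in hg19, as listed) stood at 0.0533 RPKM in THP-1 (0.0256 to 0.0978), 0.417 in MonoMac-1 (0.358 to 0.483), 2.12 in HL60 (1.95 to 2.30) and 77.1 RPKM in KG1a (76.1 to 78.0). None of these intervals overlapped. KG1a stood far above the other lines, and in THP-1 the value rested on 10.1 fragment equivalents. In KG1a JAK3 was the most abundant of the 4 kinases with 41.1% of their summed RPKM, and it lay at the 94.0th percentile of measured genes. It made up 0.0792% of the kinase sum in THP-1, 0.573% of it in MonoMac-1 and 4.77% of it in HL60. The HL60 level was 2.75% of that in KG1a, where the 64 KG1a genes other than JAK3 had a median of 2.71%; with that share of the KG1a value taken off, 0.0331 RPKM of JAK3 was left in HL60 (0.0284 RPKM with JAK3 kept in the set). Bulk RNA does not show in which cells, or in how many, a transcript lay, and the source of the JAK3 signal in the HL60 library was not tested. IL2RG, the receptor chain that JAK3 serves, stood at 1.67 RPKM in THP-1, 7.42 in MonoMac-1, 126 in HL60 and 175 RPKM in KG1a. HL60 thus had IL2RG at 72.3% of the KG1a level but JAK3 at 2.75%.

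Markers of T and NK cells, where JAK3 is best known, were not uniformly high in KG1a. Of 8 such markers 1 reached 1 RPKM in THP-1, 1 in MonoMac-1, 2 in HL60 and 4 of the 8 in KG1a. Their summed level was 16.2 RPKM in THP-1, 160 in MonoMac-1, 22.0 in HL60 and 169 RPKM in KG1a. NKG7, a granule gene of NK cells, made up most of it; without NKG7 the other 7 summed to 0.238 RPKM in THP-1, 0.615 in MonoMac-1, 4.01 in HL60 and 46.3 RPKM in KG1a. Of the 4 measured markers 3 met the 4-fold rule as lower in the MLL-AF9 lines (CD3D, CD3E and CD7), as JAK3 and 2.21% of all measured genes did. CD3E and CD7 were measured through KG1a alone. CD7 is 1 of the 65 KG1a genes, with HL60 at 2.62% of its KG1a level. Its call rests on that share, as that of JAK3 does. In KG1a, CD7 stood at 21.5 RPKM, CD3E at 14.1 and CD3D at 10.6, while CD3G, CD2 and LCK stood at 0.0142, 0.0107 and 0.121. The part of these markers in the JAK3 level was not tested.

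The promoter of JAK3 is shown because its RNA had the widest range of the 10 genes. The window runs from 250 bases before to 50 bases after the start listed by RefSeq (GRCh38.p14, chr19:17847933-17848232, minus strand, printed 5′ to 3′ along the gene). It was searched for the palindromic STAT motif TTCNNNGAA, known as the GAS element, which reads the same on both strands and would stand in capitals. The window held no match.

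JAK3: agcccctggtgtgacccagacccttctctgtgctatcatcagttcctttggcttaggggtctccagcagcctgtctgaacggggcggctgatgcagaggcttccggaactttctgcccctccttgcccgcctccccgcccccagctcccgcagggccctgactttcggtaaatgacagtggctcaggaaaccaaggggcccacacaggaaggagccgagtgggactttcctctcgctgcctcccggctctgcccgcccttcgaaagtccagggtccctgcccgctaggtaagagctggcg

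JAK2 (chromosome 9, 4985245 to 5128183), the kinase of the erythropoietin and thrombopoietin receptors, stood at 12.9 RPKM in THP-1 (12.3 to 13.4), 6.86 in MonoMac-1 (6.61 to 7.12), 1.43 in HL60 (1.29 to 1.58) and 6.56 RPKM in KG1a (6.28 to 6.84). THP-1 was highest and HL60 lowest, and the intervals of MonoMac-1 and KG1a overlapped. JAK2 made up 19.1% of the kinase sum in THP-1 but 3.22% in HL60 and 3.50% in KG1a.

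JAK1 (chromosome 1, 65298915 to 65432187), the kinase shared by interferon, gp130 and gamma-chain receptors, stood at 22.8 RPKM in THP-1, 17.5 in MonoMac-1, 19.1 in HL60 and 63.9 RPKM in KG1a. The KG1a level was 2.80 times the next, and the other 3 lines lay close together. TYK2 (chromosome 19, 10461204 to 10491248), which serves interferon and IL-12 family receptors, stood at 31.5 RPKM in THP-1, 48.1 in MonoMac-1, 21.7 in HL60 and 39.7 RPKM in KG1a. It varied least of the kinases, with a highest level 2.21 times the lowest, and led the kinase sum in THP-1 (46.9%), MonoMac-1 (66.0%) and HL60 (48.9%).

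**Figure D1:**
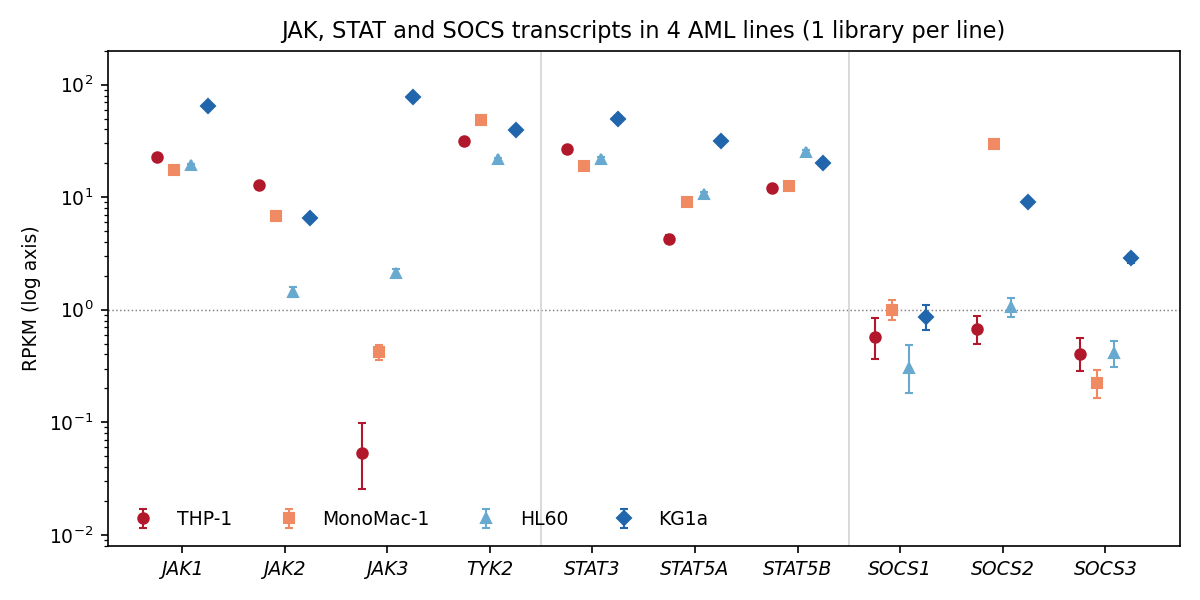
RPKM on a log axis of the 10 JAK, STAT and SOCS genes in THP-1, MonoMac-1, HL60 and KG1a, 1 library per line; bars are 95% counting intervals and the dotted line marks 1 RPKM. JAK3 spans the widest range, with 0.0533 RPKM in THP-1 and 77.1 in KG1a, and SOCS2 stands at 29.7 in MonoMac-1 but 0.670 in THP-1.

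The 3 STAT genes lie side by side on chromosome 17, in the order STAT5B (40351195 to 40428424), STAT5A (40439565 to 40463960) and STAT3 (40465343 to 40540405), with 1382 bases between STAT5A and STAT3 and 11140 between STAT5B and STAT5A. They did not follow 1 pattern: STAT3 and STAT5A were highest in KG1a, and STAT5B was highest in HL60. STAT5A and STAT5B are closely similar in sequence, so the authors' counting may have split or shared some of their reads. Their separate levels are thus uncertain.

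STAT3, the mediator of IL-6 and G-CSF signals, stood at 26.9 RPKM in THP-1, 18.9 in MonoMac-1, 22.0 in HL60 and 49.4 RPKM in KG1a. Its highest level was 2.61 times its lowest. STAT5A, which acts downstream of JAK2 and of IL-3 and GM-CSF, stood at 4.24 RPKM in THP-1 (3.92 to 4.59), 9.15 in MonoMac-1 (8.83 to 9.48), 10.7 in HL60 (10.3 to 11.2) and 31.8 RPKM in KG1a (31.1 to 32.5). No intervals of STAT5A overlapped, and THP-1 was lowest. STAT5B stood at 11.99 RPKM in THP-1 (11.5 to 12.5), 12.7 in MonoMac-1 (12.3 to 13.0), 25.4 in HL60 (24.8 to 26.01) and 20.1 RPKM in KG1a (19.6 to 20.6). The intervals of THP-1 and MonoMac-1 overlapped, and both lay below HL60 and KG1a.

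The balance of the STAT5 genes, a ratio within a library that no scaling of that library alters, differed between the lines. STAT5A was 0.354 times STAT5B in THP-1, 0.722 times in MonoMac-1, 0.422 times in HL60 and 1.58 times in KG1a. KG1a was the line in which STAT5A exceeded STAT5B. The sum of both was 16.2 RPKM in THP-1, 21.8 in MonoMac-1, 36.1 in HL60 and 51.9 RPKM in KG1a. STAT3 made up 62.3% of the summed level of the 3 genes in THP-1, 46.4% in MonoMac-1, 37.8% in HL60 and 48.8% of it in KG1a.

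**Figure D2:**
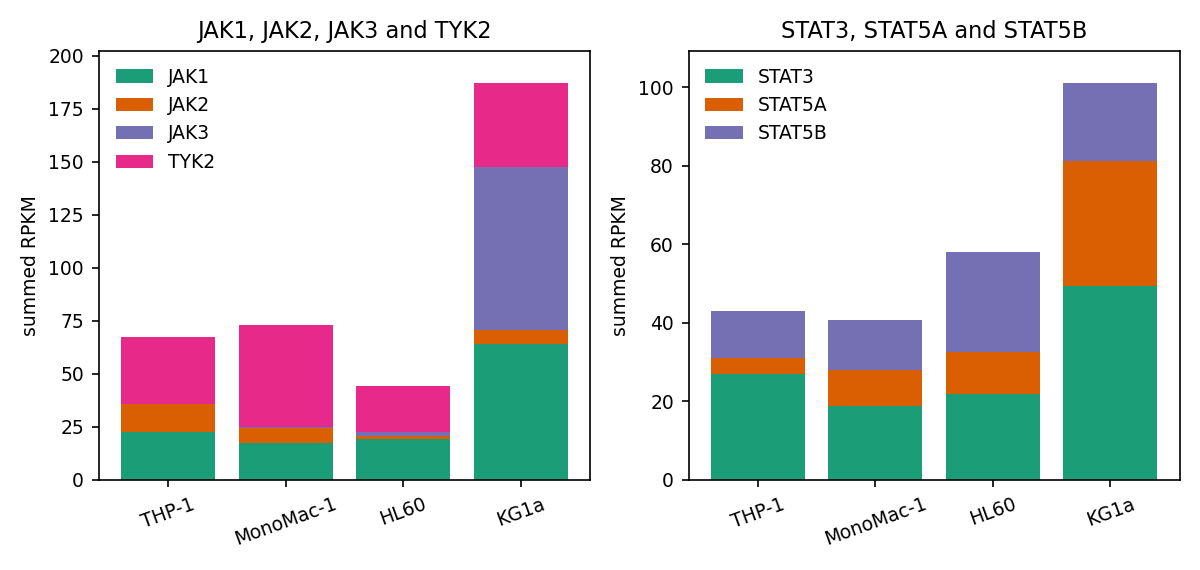
Summed RPKM of the 4 kinase genes (left) and of STAT3, STAT5A and STAT5B (right) in THP-1, MonoMac-1, HL60 and KG1a, each bar stacked by gene and 1 library per line. KG1a has the tallest bars, 187 RPKM for the kinases with 41.1% from JAK3, and TYK2 is the largest kinase segment in the other 3 lines.

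Of the inhibitors, SOCS2 was expressed in MonoMac-1 and, less, in KG1a, while SOCS1 and SOCS3 were low everywhere. SOCS2 (chromosome 12, 93963598 to 93969978), a STAT5-induced inhibitor known for restraining growth hormone signals, stood at 0.670 RPKM in THP-1 (0.4998 to 0.880), 29.7 in MonoMac-1 (28.9 to 30.5), 1.05 in HL60 (0.866 to 1.26) and 8.99 RPKM in KG1a (8.49 to 9.51). MonoMac-1 was the highest and THP-1 the lowest line, although both carry MLL-AF9, and the intervals of THP-1 and HL60 overlapped. In MonoMac-1 SOCS2 made up 96.1% of the summed level of the 3 inhibitors.

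SOCS3 (chromosome 17, 76352859 to 76356158), the STAT3-induced inhibitor of gp130 and G-CSF receptors, stood at 0.405 RPKM in THP-1, 0.221 in MonoMac-1, 0.408 in HL60 and 2.87 RPKM in KG1a. Only in KG1a did it pass 1 RPKM, at 7.02 times the HL60 level; the intervals of HL60 and THP-1 overlapped, as did those of THP-1 and MonoMac-1. SOCS1 (chromosome 16, 11348274 to 11350039), an inhibitor of the kinases induced by interferon, stood at 0.568 RPKM in THP-1 (0.364 to 0.845), 0.997 in MonoMac-1 (0.807 to 1.22), 0.305 in HL60 (0.182 to 0.481) and 0.865 RPKM in KG1a (0.666 to 1.10). Each line overlapped its neighbour in the order of SOCS1 levels, which rested on 18.3 to 95.3 fragment equivalents. Over the 10 genes, 8 of 30 neighbouring pairs of lines had overlapping counting intervals, and the spread between cultures of a line was not measured.

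The range of the members over the lines was set beside that of all measured genes, which were not matched to them for level. The range of a gene is the difference between its highest and lowest log2(RPKM + 1). It had a median of 1.81 over the 9 measured members and of 1.18 over all 12976 measured genes. A range of at least 2 was reached by 4 of the 9 members (JAK3 at 6.21, SOCS2 at 4.20, STAT5A at 2.64 and JAK2 at 2.51) and by 21.8% of all measured genes; it was reached by 2 members without KG1a and by 2 without THP-1, where all genes reaching it fell to 1487 and 2295, against 2823 with all lines. KG1a was the highest line for 5 of the 9 (JAK1, JAK3, STAT3, STAT5A and SOCS3), where 31.0% of all measured genes were highest in KG1a. SOCS3 passed the filter of 1 RPKM through KG1a alone, so its place in this count was fixed by the filter. Of the other members, SOCS2 and TYK2 were highest in MonoMac-1 (24.9% of genes), JAK2 in THP-1 (21.0%) and STAT5B in HL60 (23.1%). These shares were not tested, and counting the members by their highest line was chosen after the values were seen.

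The pair THP-1 and MonoMac-1 was set against the pair HL60 and KG1a, a split that the title's MLL-AF9 implies. Both MLL-AF9 lines are monocytic and the others are not, so fusion, cell type and single lines cannot be told apart. By a 4-fold rule, in which the lower RPKM of one pair is at least 4 times the higher RPKM of the other, 0 of the 9 measured members were higher in the MLL-AF9 lines (4.35% of all measured genes) and 1, JAK3, was lower (2.21%). For JAK3 the lower of HL60 and KG1a was 5.07 times the higher of THP-1 and MonoMac-1, a ratio set by the HL60 value; with the KG1a share taken off HL60, JAK3 did not meet the rule and 0 members were lower. Without KG1a, 1 member was higher (JAK2), as were 1030 genes in all against 564 with all lines. Without HL60, 2 were lower (JAK3 and SOCS3), as were 831 genes in all against 287 with all lines. Both members were then measured through KG1a alone.

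By any margin, 1 member (JAK2) stood above both other lines in each MLL-AF9 line, against 22.1% of all measured genes, and 4 (JAK3, STAT5A, STAT5B and SOCS3) were lower, against 19.6%. For JAK2 the lower of the MLL-AF9 lines was 1.05 times the higher of the other lines, and for SOCS3 the lower of HL60 and KG1a was 1.01 times the higher MLL-AF9 line, margins within counting error. With the KG1a share taken off HL60, JAK3 fell to 0.0284 RPKM and SOCS3 to 0.331 RPKM there. Both then lay below the higher MLL-AF9 line (0.417 RPKM for JAK3 in MonoMac-1, 0.405 RPKM for SOCS3 in THP-1). Neither was then lower by any margin. For STAT5B the lower of HL60 and KG1a was 1.59 times the higher MLL-AF9 line, and for STAT5A 1.17 times. The linear model limma, fitted across the 12976 genes with the line as the unit (2 against 2, 2 residual degrees of freedom), called 0 members and 0 genes in all at an adjusted p of 0.05 (0% of genes); at an unadjusted p under 0.05 it gave 0 members and 767 higher and 342 lower genes. The log2 difference of THP-1 and MonoMac-1 minus HL60 and KG1a was -3.67 ± 1.54 for JAK3 (SE; limma adjusted p = 0.615), -0.82 ± 0.35 for STAT5B (adjusted p = 0.618), -1.42 ± 0.66 for STAT5A (adjusted p = 0.652) and 1.28 ± 0.70 for JAK2 (adjusted p = 0.713). None of these differences exceeded the spread between lines at the threshold.

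Between the MLL-AF9 lines, 1 of 7 members with at least 1 RPKM in either was 4-fold apart, SOCS2 at 0.670 RPKM in THP-1 and 29.7 RPKM in MonoMac-1, lower in THP-1 as 5.26% of genes were; 0 were higher in THP-1 (5.59% of genes). The MonoMac-1 level of SOCS2 was 44.3 times that in THP-1. Between the other lines, 4 of 9 members were at least 4-fold lower in HL60 than in KG1a (12.5% of genes) and 0 were higher (7.90%). These were JAK3 at 2.75% of the KG1a level, SOCS2 at 11.7%, SOCS3 at 14.2% and JAK2 at 21.8%. JAK3 alone of these belongs to the 65 KG1a genes, and SOCS3 alone of them passed the filter through KG1a only. Each of these comparisons rests on 1 library per line and has no test.

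**Figure D3:**
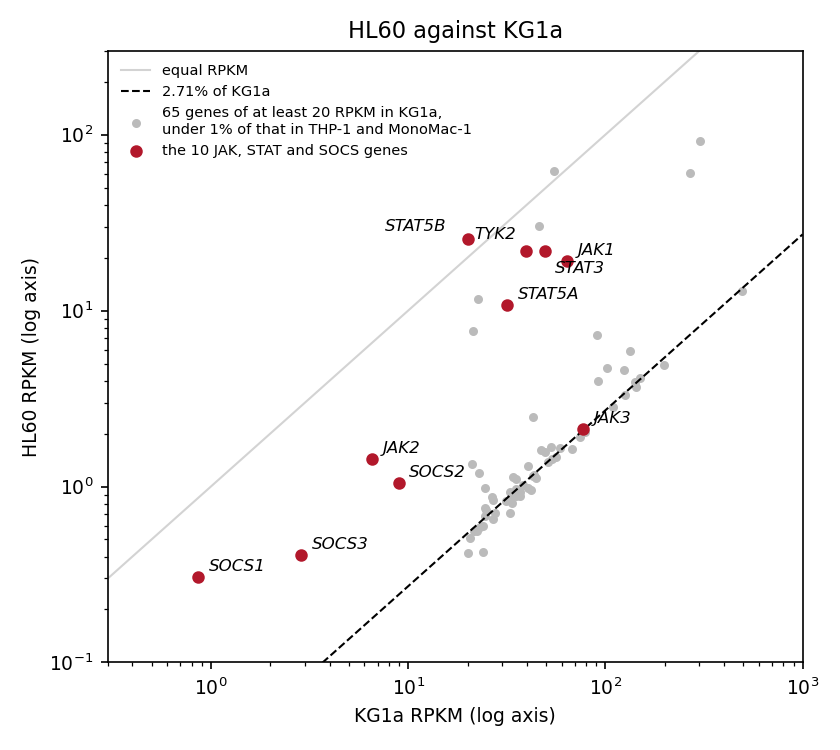
RPKM in HL60 (y axis) against KG1a (x axis), both on log axes, for the 10 JAK, STAT and SOCS genes (red) and the 65 genes abundant in KG1a, JAK3 among them (grey), 1 library per line. The dashed line marks 2.71% of the KG1a level. JAK3 lies on it, and the other 9 red genes lie above it. Many grey genes lie near the line, but some, such as CCND2 at 65.9%, lie far above it.

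The genes whose profile over the 4 lines was nearest to that of a member were sought among 9982 measured genes that reached 5 RPKM, by the Euclidean distance between centred log2(RPKM + 1) values. For JAK3 they were RAB27B (distance 0.21; 0.176 RPKM in THP-1, 0.337 in MonoMac-1, 1.90 in HL60 and 74.3 RPKM in KG1a), GRIK5 (0.33) and C1orf150 (0.34). RAB27B, GRIK5 and C1orf150 are, like JAK3, among the 65 KG1a genes. Their HL60 levels were 2.56%, 2.79% and 2.40% of those in KG1a, so the likeness to JAK3 includes that share. For SOCS2 they were NCAM1 (0.59; 0.0814 RPKM in THP-1, 12.4 in MonoMac-1, 0.202 in HL60 and 2.93 RPKM in KG1a) and CCDC109B (0.68). For STAT5A they were PEPD (0.15), MSI2 (0.20) and ZNF714 (0.20). A likeness over 4 libraries is a description only.

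The other STAT genes divided between the lines. STAT4, the effector of IL-12, stood at 0.532 RPKM in THP-1, 0.155 in MonoMac-1, 0.459 in HL60 and 6.69 RPKM in KG1a, where it was highest. STAT6, the effector of IL-4 and IL-13, ran the other way, at 54.8 RPKM in THP-1, 51.5 in MonoMac-1, 30.7 in HL60 and 12.3 RPKM in KG1a. STAT2, which acts in the response to type I interferons, stood at 13.9 RPKM in THP-1 and 18.1 RPKM in MonoMac-1, against 6.84 RPKM in HL60 and 7.93 RPKM in KG1a. Of these 3 genes 0 met the 4-fold rule in either direction, 2 were by any margin higher in the MLL-AF9 pair (22.1% of measured genes), and 0 were lower.

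Among the other inhibitors PTPN6 had the widest range. PTPN6 encodes SHP-1, a phosphatase that dephosphorylates Janus kinases and their receptors in blood cells, and stood at 69.9 RPKM in THP-1, 254 in MonoMac-1, 142 in HL60 and 1.21 RPKM in KG1a. KG1a, the line with the most JAK3, thus had the least PTPN6, 57.8 times below the next line. SH2B3 (LNK), an adaptor that restrains JAK2, stood at 12.3 RPKM in THP-1, 12.01 in MonoMac-1, 21.3 in HL60 and 39.8 RPKM in KG1a. PIAS2, a co-regulator that binds STATs, stood at 7.19 RPKM in THP-1, 12.9 in MonoMac-1, 3.89 in HL60 and 16.8 RPKM in KG1a. Both were highest in KG1a, unlike PTPN6. Of the 12 phosphatase, PIAS and adaptor genes 12 were measured, 0 met the 4-fold rule, 1 was higher and 2 were lower by any margin (22.1% and 19.6% of all measured genes), and 1 reached a range of 2 (21.8%). SOCS6 stood at 4.99 RPKM in THP-1, 3.46 in MonoMac-1, 0.0938 in HL60 and 5.03 RPKM in KG1a, so that HL60 held 1.87% of the KG1a level. SOCS7 stood between 3.71 and 6.83 RPKM in all lines.

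CISH, a SOCS-box inhibitor and a known STAT5 target, stood at 4.95 RPKM in THP-1, 3.69 in MonoMac-1, 6.44 in HL60 and 20.01 RPKM in KG1a. KG1a was highest for CISH, as for STAT5A. The promoter of CISH and that of IRF1, an interferon-induced transcription factor, are shown as examples of windows with the GAS motif, in capitals (RefSeq, GRCh38.p14, both minus strand, chr3:50611725-50612024 for CISH and chr5:132490724-132491023 for IRF1). IRF1 stood at 8.03 RPKM in THP-1, 4.76 in MonoMac-1, 3.40 in HL60 and 9.84 RPKM in KG1a. CISH holds 4 matches, at offsets -241, -230, -129 and -112 from the start, and IRF1 1 match at -124. Of the other targets searched, BCL6, which was not high in KG1a, had 4 matches in 1 of its 2 windows, and PIM1, which was highest there, had 0.

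CISH: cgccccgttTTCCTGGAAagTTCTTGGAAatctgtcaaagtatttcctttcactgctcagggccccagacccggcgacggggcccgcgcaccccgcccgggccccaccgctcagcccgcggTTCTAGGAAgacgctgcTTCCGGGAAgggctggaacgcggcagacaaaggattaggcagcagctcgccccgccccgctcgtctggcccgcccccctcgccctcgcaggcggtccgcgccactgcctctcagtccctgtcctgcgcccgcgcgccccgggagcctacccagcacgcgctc

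IRF1: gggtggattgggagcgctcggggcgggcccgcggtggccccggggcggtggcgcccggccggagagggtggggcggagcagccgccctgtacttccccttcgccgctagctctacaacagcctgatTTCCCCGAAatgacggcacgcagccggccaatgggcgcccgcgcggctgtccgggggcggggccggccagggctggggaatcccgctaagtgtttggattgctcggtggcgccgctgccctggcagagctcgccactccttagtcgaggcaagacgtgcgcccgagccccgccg

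The motif was present in 7.66% of the 35116 windows of the RefSeq promoter table. Of the 10 members 9 were matched in that table, with 17 windows, and 0 of the 17 held the motif; SOCS2 had no entry. Some windows of JAK2 overlap each other, as do some of STAT5A, so the 17 are not independent. They were matched by symbol and not by position, so they need not cover the starts of the genes as listed in hg19. A match is a stretch of letters and not a binding site, and a window without one may lie beside sites farther away.

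Target genes of STAT3 and STAT5 were mostly highest in KG1a. Of 11 measured genes of 12 listed, 7 were highest in KG1a (31.0% of all measured genes) and 6 reached a range of 2 (21.8%). The list was chosen with earlier results known. KG1a stood above the next line by 1.19 times for CCND3, 1.44 for OSM and 1.52 for CCND2. For CISH, BCL2L1, ID1 and PIM1 it did so by 3.11, 3.27, 12.1 and 14.8 times. By the 4-fold rule 1 was lower in the MLL-AF9 lines (2.21%) and 0 were higher (4.35%). PIM1, a survival kinase, stood at 5.73 RPKM in THP-1, 1.32 in MonoMac-1, 8.24 in HL60 and 121.5 RPKM in KG1a. ID1, an inhibitor of differentiation, stood at 1.35 RPKM in THP-1, 2.37 in MonoMac-1, 0.910 in HL60 and 28.7 RPKM in KG1a, with HL60 at 3.17% of KG1a. CCND2, a G1 cyclin, was the gene that met the rule, with 0.170 RPKM in THP-1 and 0.180 RPKM in MonoMac-1, against 30.3 RPKM in HL60 and 45.97 RPKM in KG1a. It is 1 of the 65 KG1a genes, but its HL60 level was 65.9% of that in KG1a. BCL6, a repressor under STAT control, was lowest in KG1a, at 1.70 RPKM in THP-1, 8.15 in MonoMac-1, 0.881 in HL60 and 0.266 RPKM in KG1a. PIM2 was also lowest in KG1a, at 6.84 RPKM against 12.6 to 17.6 RPKM in the other lines. The same held for MCL1, at 29.3 RPKM against 52.6 to 80.2 RPKM. CCND1 was highest in HL60 (12.2 RPKM) and stood at 0.443 RPKM in KG1a. Of 7 measured interferon-induced genes 6 were highest in KG1a (31.0%), of which GBP1 and CXCL10 were measured through KG1a alone. GBP1, an interferon-induced GTPase, stood at 0.00943 RPKM in THP-1 and 0.0372 RPKM in MonoMac-1, against 0.560 RPKM in HL60 and 22.3 RPKM in KG1a, and met the 4-fold rule as lower; its HL60 level was 2.51% of that in KG1a, where the 64 other KG1a genes had a median of 2.72%. GBP1 is itself 1 of the 65, and with that share taken off it was at 0 in HL60 and did not meet the rule. CXCL10, a chemokine of the interferon response, had 4.27 RPKM in KG1a and at most 0.161 in the other lines. GBP2 was about as high in MonoMac-1 (17.05 RPKM) as in KG1a (18.4).

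The receptors through which the kinases act were measured in part. Of 34 receptor genes 25 were measured, the 4-fold rule found 4 higher in the MLL-AF9 pair (PRLR, IL7R, IL13RA1 and IL12RB2; 4.35% of all measured genes) and 2 lower (IL2RG and IL5RA; 2.21%). IL5RA had a listed value of 0 in both MLL-AF9 lines and stood at 3.18 RPKM in HL60 and 0.0113 RPKM in KG1a, so it was measured through HL60 alone and its call rests on a trace in KG1a set against 0. IL7R stood at 0.888 RPKM in THP-1 and 1.78 RPKM in MonoMac-1, against 0.0438 RPKM in HL60 and 0.173 RPKM in KG1a. PRLR, the prolactin receptor that signals through JAK2 and STAT5, stood at 3.65 RPKM in THP-1 and 22.99 RPKM in MonoMac-1, against 0.0736 RPKM in HL60 and 0.00449 RPKM in KG1a. IL13RA1, a chain of the IL-4 and IL-13 receptors, stood at 17.4 RPKM in THP-1 and 4.80 RPKM in MonoMac-1, against 0.918 RPKM in HL60 and 0.0164 RPKM in KG1a. IL12RB2, which recruits JAK2 to the IL-12 receptor, stood at 14.3 RPKM in THP-1 and 22.1 RPKM in MonoMac-1, against 0.645 RPKM in HL60 and 0.154 RPKM in KG1a. PRLR, IL13RA1 and IL12RB2 were thus each present in both MLL-AF9 lines and under 1 RPKM in HL60 and KG1a. The signalling chain CSF2RB, shared by the GM-CSF, IL-3 and IL-5 receptors, was present at 9.34 RPKM in THP-1, 5.38 in MonoMac-1, 16.4 in HL60 and 0.710 RPKM in KG1a. Its partner genes CSF2RA and IL3RA, like IL9R and CRLF2, are placed on both X and Y and were listed at 0 in all libraries, so they were not assessed. Ligands were scarce: of 18 listed, 1 was measured, OSM (oncostatin M) at 0.511 RPKM in THP-1, 2.69 in MonoMac-1, 1.26 in HL60 and 3.86 RPKM in KG1a, and IL3, IL4 and IL6 were listed at 0 in every line.

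**Figure D4:**
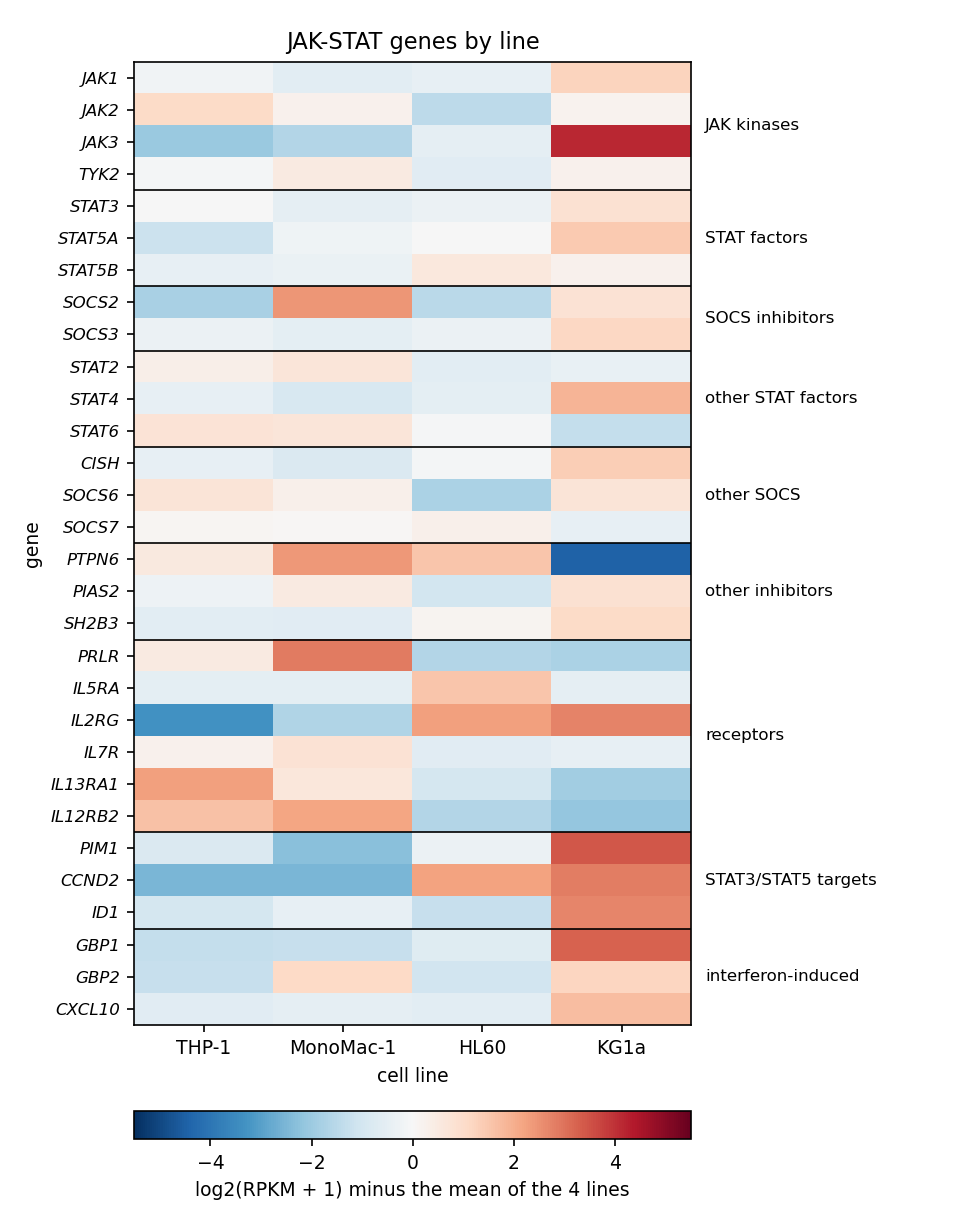
Log2(RPKM + 1) minus the mean of the 4 lines for the measured members and the named genes of each pathway list (rows) in THP-1, MonoMac-1, HL60 and KG1a (columns), 1 library per line. JAK3, PIM1 and GBP1 are red in KG1a, where PTPN6 and STAT6 are blue, and SOCS2 and PRLR are reddest in MonoMac-1.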

How the data were processed

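RNA of 4 leukemia lines was extracted with TRIzol and made into Illumina libraries, per the labels' protocols. Build hg19 and CASAVA 1.8.2 appear in the submitters' processing notes; aligner, annotation and strand handling are not stated there. The authors deposited, per line, a table of 21893 entries with an RPKM and a whole-number coverage signal of unstated unit. That deposited signal was read from its values as sequenced bases on the gene, since the commonest low value was 200 in each library. Multiples of 100 made up 41.5% to 46.7% of low values in THP-1, HL60 and KG1a but 9.99% in MonoMac-1, so the total and the intervals of MonoMac-1 are less certain. The signal gave the library totals and, in fragment equivalents of 200 bases, the exact Poisson intervals, which cover counting error only. Reads without molecular identifiers are not independent molecules.

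Values were analysed as log2(RPKM + 1), which understates differences of weakly expressed genes. A repeated symbol was represented by its entry of highest mean; no member repeats. limma 3.58.1 (R 4.3.3; eBayes with trend, two-sided, Benjamini-Hochberg over 12976 genes) used the line as the unit; its p-values measure the spread between lines. The code was tested on simulated data of smaller spread, which does not measure its power here. Counts by the 4-fold rule used RPKM. Alternatives were another pseudocount (0.1), other filters (none, 5 RPKM), quantile and median-of-ratios scaling, summed entries, removal of the KG1a share from HL60 (with JAK3 left out of its set, added after the values were seen) and leaving out each line. Named genes were all members, pathway genes that met the 4-fold rule or had 1 of the 3 widest ranges of their list, and the 3 nearest profiles of the 3 most variable members. BCL6, CSF2RB, CD7, CD3E, CD3G, CD2, LCK, NKG7, CD3D, MPO, ELANE, AZU1, CTSG and IRF1 were added after their values were seen. So were CEBPE, PRTN3, MEIS1, BAALC, HOXA9, GATA2, PIM2, MCL1, CCND1, CCND3 and BCL2L1. Some genes that this rule names are not reported here. Members and lists were chosen with earlier results of these data known. Coordinates of genes are hg19, as listed; promoter sequences are from RefSeq on GRCh38.p14 and were matched by symbol.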

Additional observations from a re-analysis of the deposited data

How the results depend on the processing

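Of 97 member differences recomputed with limma, 92 kept their direction and their side of the threshold, and the lowest adjusted p was 0.157. The other 5 changed sign when a line was left out: JAK1 (0.060) and STAT3 (0.036) without KG1a, TYK2 (-0.028) and SOCS2 (-0.48) without HL60, and SOCS2 (-1.44) without MonoMac-1, all as log2 differences. Over the left-out lines JAK1 ran between -1.63 and 0.060, STAT3 between -1.10 and 0.036, TYK2 between -0.028 and 0.81, and SOCS2 between -1.44 and 2.76. Taking the KG1a share off HL60 left 0 members and 141 genes lower by the 4-fold rule and a STAT5A to STAT5B ratio of 0.396 in HL60. Leaving out each line gave 0 to 1 members higher and 1 to 2 lower by that rule, 764 to 1334 genes higher and 264 to 831 lower in all, against 564 and 287 with all lines. It also gave 2 to 4 members and 1487 to 2315 genes with a range of at least 2 (2823 with all lines). Leaving out THP-1, MonoMac-1 or HL60 gave 5 to 7 members highest in KG1a. The share of all genes was not counted there, so these numbers cannot be set beside the 31.0% found with all lines. Without a filter on low values the 4-fold rule counted 1090 genes higher and 630 lower, and with at least 5 RPKM 308 and 181. Without the filter, THP-1 and MonoMac-1 differed 4-fold in 2 members and 4422 genes, and HL60 and KG1a in 6409 genes; with at least 5 RPKM these were 616 and 1370 genes, where 1308 and 2417 were reported with the filter at 1 RPKM. Fewer genes tested is part of the construction of that filter, under which limma called 11 genes and 0 members. With a pseudocount of 0.1, 4607 genes reached a range of 2. No paired analysis was possible because each line has 1 library. SOCS1 and SOCS3 in the lines other than KG1a rest on 18.3 to 95.3 fragment equivalents, which limits the order of their levels.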
